A study of Mus musculus musculus x M. m. domesticus and Mus musculus domesticus and Mus musculus with 12 samples.

Results

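Postmeiotic genes on chromosomes 1 to 5 were described in whole testis of male house mice from 4 kinds of cross. A gene counted as postmeiotic where the study's table of testis-expressed genes assigned it to postmeiotic cells. That label was taken by the authors from a separate published data set and marks greatest induction in round spermatids, not expression limited to them. Of the 1997 rows of that table available here, 269 carried the label, all on chromosomes 1 to 5, and the rows for chromosome 5 were incomplete. One of them, *Spinlw1*, was set aside because it belongs to a short list of the study whose postmeiotic members had been chosen for higher expression in sterile males of these same arrays. The remaining 268 genes were all measured, among 7000 genes in the deposited values, with 49 on chromosome 1, 66 on chromosome 2, 50 on chromosome 3, 64 on chromosome 4 and 39 on chromosome 5.

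RNA was taken from the whole testis of 3 males aged 60 days per genotype, with 1 Affymetrix mouse genome expression array per male and 12 arrays in all. All males were F1 offspring of wild-derived inbred strains, and each cross is written with the maternal strain first. *DxD* males came from LEWES/EiJ x WSB/EiJ, both *M. domesticus*, and *MxM* males from PWK/PhJ x CZECHII/EiJ, both *M. musculus*. The fertile hybrid *DxM* was LEWES/EiJ x PWK/PhJ, and the sterile hybrid *MxD* was the reciprocal cross, PWK/PhJ x LEWES/EiJ. For an autosomal gene both hybrids therefore carried the same pair of strain alleles, and they differed in the origin of the X chromosome, the Y chromosome and the mitochondrial DNA. The *DxD* and *MxM* males were not parents of the hybrids, since WSB/EiJ and CZECHII/EiJ are in neither hybrid. All values are log2 array values that had been normalized between arrays, so that every array had a median of 8.14 over all genes and a level is relative to the rest of the same array.

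Spermatids are the haploid cells that follow the second meiotic division. During spermiogenesis round spermatids condense their chromatin around protamines, build an acrosome and a flagellum, and shed most of their cytoplasm. Much of the RNA needed for these late steps is made in round spermatids and stored for later translation. The files pair no names with the Ensembl identifiers of these genes, so genes are given by identifier, chromosome and value. For the same reason the label could not be checked against known spermatid markers, and markers of other testis cells could not be looked up by name. The study's meiotic, mitotic and somatic gene groups, marking spermatocytes, spermatogonia and Sertoli cells, serve below as the measure of other cell types.

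The 12 males differed in how tightly they grouped. Over the 268 genes, the SD among the 3 males of a genotype had a median of 0.131 in *MxM* and 0.114 in *MxD*, and a smaller one in the others, 0.0989 in *DxM* and 0.0772 in *DxD* (log2). *MxM* male 3 stood apart. Its deviation from each gene's median in 12 males had a median of 0.0617 over all 7000 genes (log2). The remaining 11 males lay between -0.0116 and 0.0048. It was also lower than the remaining 11 males by 1 log2 unit or more at 131 of the 7000 genes and at 6 of the 268. None of these 6 passed the test between *DxD* and *MxM*, although 3 of them had the largest excess of *DxD* over *MxM*, at 1.31, 1.96 and 2.10 on the log2 scale. Nothing in the labels ties the males to litters. The main fit used only the spread among males of a cross, and a block on the replicate number in the titles was run as an alternative. The limma p-values below come without that block and rest on 1 spread per gene, shared by all genotypes of the fit.

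The median level of the postmeiotic genes was lower in each sterile *MxD* male than in any fertile male. For each gene the deviation of a male from the median of all 12 males was taken, and the median over the 268 genes described that male. The medians of the *MxD* males were -0.11, -0.17 and -0.21 for males 1, 2 and 3 on the log2 scale. Those of the 3 *DxM* males were 0.009, 0.0299 and 0.0336, those of the *DxD* males 0.0321, 0.0183 and 0.0454, and those of the *MxM* males 0.0128, 0.0832 and 0.0976. The 3 *MxD* males thus lay below all 9 fertile males, and the fertile genotypes overlapped each other. As genotype means the medians were -0.16 ± 0.053 for the sterile males, and 0.0242 ± 0.0132 (*DxM*), 0.0319 ± 0.0135 (*DxD*) and 0.0646 ± 0.0454 (*MxM*) for the fertile ones (SD, n = 3 males each). In whole testis, fewer postmeiotic cells and less RNA per postmeiotic cell cannot be told apart.

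**Figure D1:**
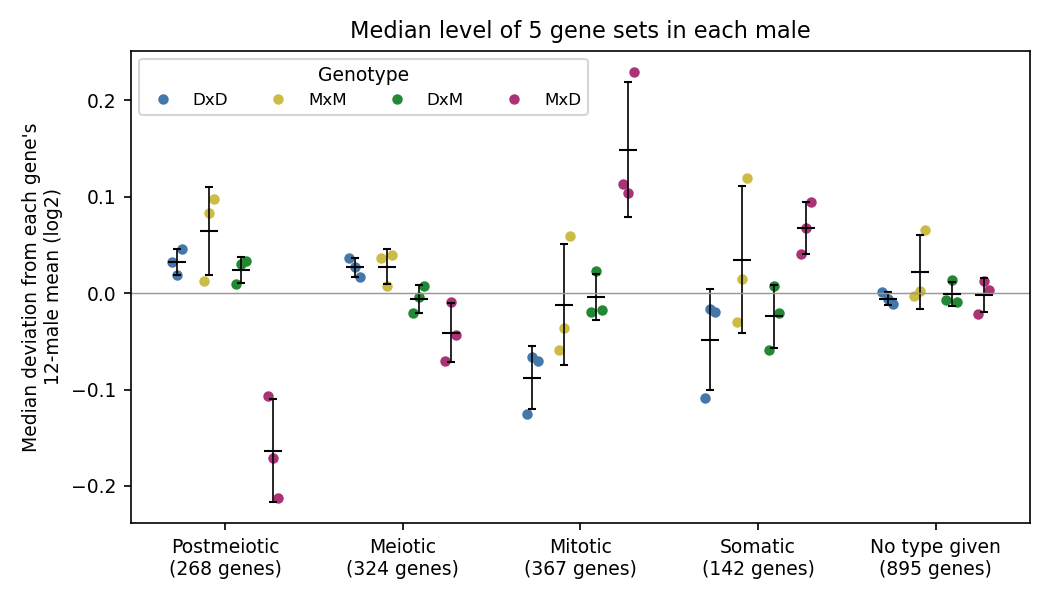
Each coloured point is 1 male, plotted as the median over a gene group of its log2 deviation from each gene's median in 12 males. The axis label names the 12-male mean, but the median was used. Black marks give the mean and SD of the 3 males of a genotype. For the 268 postmeiotic genes the 3 *MxD* males lie between -0.21 and -0.11, below all 9 fertile males, whereas for the 367 mitotic genes they lie above all of them.

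The mitotic group also set the *MxD* males apart, above all 9 fertile males. The somatic group did not, since *MxM* male 3, at 0.119, was above all 3 *MxD* males. That *MxM* male was also high over all 7000 genes, at 0.0617. In the meiotic group *MxD* male 2, at -0.009, was above *DxM* male 1, at -0.021. The mean of the *MxD* medians was -0.0411 for 324 meiotic genes, 0.148 for 367 mitotic genes, 0.0675 for 142 somatic genes and -0.0021 for 895 genes to which no cell type was assigned. Between the hybrids, the median *MxD* minus *DxM* difference was -0.0439 for the meiotic, 0.156 for the mitotic and 0.108 for the somatic genes, against 0.0027 for those with no type. The part of a changed cell composition in the postmeiotic values was not tested. The 3 *MxD* males also differed in degree. Male 1 was below all 9 fertile males at 87 of the 268 genes (32.5%), male 2 at 114 (42.5%) and male 3 at 138 (51.5%), where the same males were below all 9 at 14.9%, 12.9% and 19.3% of the 7000 genes.

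Reciprocal hybrids were compared first, since at an autosomal gene they do not differ in alleles. The *MxD* mean was below the *DxM* mean at 239 of 268 genes (89.2%), against 50.1% of all genes tested. The median of the differences was -0.20 (log2), a level 12.8% lower in *MxD*, and the middle of the distribution was narrow, with quartiles at -0.33 and -0.09. The lowest difference was -0.85 and the highest 0.30. At least 0.5 log2 units separated the hybrids at 15 genes, in all of which *MxD* was the lower. Among all 7000 genes *MxD* was lower by that much at 90 and higher at 119. All 3 *MxD* males were below all 3 *DxM* males at 114 genes (42.5%, against 12.9% of all genes), and all 3 were above at 3 genes (1.12%, against 13.5%).

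**Figure D2:**
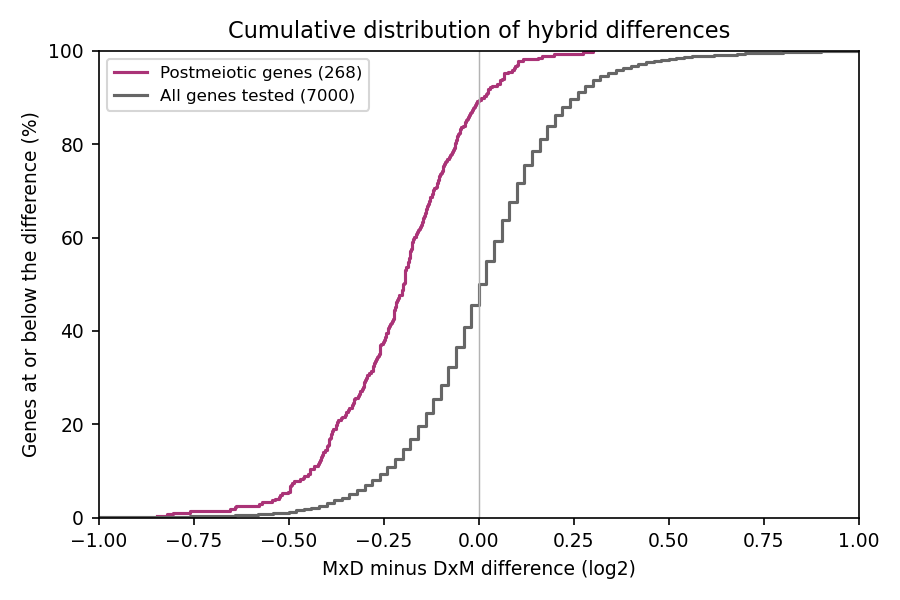
Cumulative share of genes, in percent, at or below each *MxD* minus *DxM* difference on the log2 scale, for the 268 postmeiotic genes and for all 7000 genes tested. At a difference of 0 the postmeiotic curve has reached 89.2% and that of all genes 50.1%.

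With limma and Benjamini-Hochberg adjustment over all 7000 genes at 5%, 38 postmeiotic genes had lower values in *MxD* than *DxM* (14.2%, against 3.5% of all genes), and none had higher ones (against 3% of all genes). These calls did not hold under the methods' t-test with Benjamini-Hochberg adjustment, which called almost no gene of any kind lower. It gave 0 lower with unequal variances (against 0% of all genes), 1 with equal variances (against 0.0714%) and 0 higher. At an unadjusted p under 0.05, limma placed 111 lower (against 11% of all genes) and 1 higher. The unequal-variance form of the methods' test placed 74 lower (against 7.33%) and 2 higher at that threshold. The equal-variance form was not run there. The 38 fell by 1.18-fold to 1.80-fold with a median of 1.34-fold, and their differences ran from -0.24 to -0.85. At 20 of the 38 the 3 *MxD* males were also below all 9 fertile males. The calls favour such a separation, and its share among all genes so called is not given. Males of the same replicate number deviated together, and blocking on that number gave 93 lower and 0 higher (8.83% and 8.33% of all genes). The 38 were all among the 93. The count moved when a male was left out, and so did the share of all genes. It was 13 without *MxD* male 3 (against 1.1% of all genes) and 17 or 18 without any 1 of the *DxM* males (against 1.44% to 1.64%). It was 21 or 25 without *DxD* male 2 or 3 (against 2.49% and 2.61%), and 54 or 56 without *MxM* male 1 or 3 (against 4.24% and 4.89%). The *DxD* and *MxM* males enter only through the shared estimate of the spread. The median difference stayed between -0.23 and -0.18 whichever male was left out.

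The largest fall between the hybrids was at ENSMUSG00000048824 on chromosome 4. Its log2 values were 5.93, 6.05 and 5.76 in the *MxD* males and 6.67, 6.87 and 6.75 in the *DxM* males. In *DxD* they were 7.03, 7.18 and 7.19, and in *MxM* 5.89, 6.10 and 6.23. The *MxD* males overlapped the *MxM* males and lay below both other genotypes. *MxD* was lower than *DxM* by 1.80-fold, with a log2 difference of -0.85 ± 0.10 (SE) and an adjusted p of 0.00104 by limma with Benjamini-Hochberg adjustment.

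The next was ENSMUSG00000055833 on chromosome 1, with 5.98, 6.15 and 5.72 in *MxD* against 6.73, 6.75 and 6.82 in *DxM*. Its values were 6.83, 6.84 and 6.85 in *DxD* and 6.02, 6.22 and 6.21 in *MxM*. As at the first gene, the sterile hybrid overlapped *MxM*. The fertile hybrid was 0.07 below *DxD* here, and 0.37 below it at the first gene (log2). The log2 difference between the hybrids was -0.82 ± 0.10 (SE), with an adjusted p of 0.00101 by limma with Benjamini-Hochberg adjustment. At both genes the *MxD* and *MxM* means differed by less than the test could call, with adjusted p of 0.274 and 0.158 in the same limma fit with Benjamini-Hochberg adjustment, and *DxD* was above *MxM* by 1.06 and 0.70 on the log2 scale. The 8 genes that followed in size fell between the hybrids by 0.81 to 0.52 log2 units.

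Few postmeiotic genes went the other way. The largest excess of *MxD* over *DxM* was at ENSMUSG00000042501 on chromosome 1, with 6.81, 6.80 and 6.88 in *MxD* and 6.39, 6.55 and 6.66 in *DxM*. The groups did not overlap, but the log2 difference of 0.30 ± 0.12 (SE) did not pass, with an adjusted p of 0.178 by limma with Benjamini-Hochberg adjustment. Without *MxM* male 3 it passed, at 0.0435 in the same limma fit. This gene was 6.13, 6.16 and 6.15 in *DxD* and 6.83, 7.05 and 7.40 in *MxM*, so both hybrids lay between the species. At ENSMUSG00000027357 on chromosome 2 the hybrid males were also apart, at 9.50, 9.50 and 9.62 in *MxD* against 9.27, 9.40 and 9.47 in *DxM*. Its difference was 0.16 ± 0.10 (SE), with an adjusted p of 0.415 in the same limma fit with Benjamini-Hochberg adjustment. At the remaining gene of the 3 the difference was 0.09.

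*Spinlw1*, the postmeiotic gene set aside for its list, had a mean of 9.43 ± 0.08 (SD, n = 3) in sterile males. The fertile means were lower, at 8.97 in *DxM*, 8.93 in *DxD* and 8.87 in *MxM*. Because that list was drawn from these arrays, the absence of called increases among the 268 genes was in part fixed by how they were chosen.

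Against the species the sterile males were again mostly lower, and these comparisons share the *MxD* males with the one above. With limma and Benjamini-Hochberg adjustment, *MxD* was lower than *DxD* at 90 genes (33.6%, against 15.1% of all genes) and higher at 10 (3.73%, against 15.9%). *MxD* was lower than *MxM* at 105 genes (39.2%, against 17.3%) and higher at 9 (3.36%, against 13%). The median differences were -0.22 from *DxD* and -0.22 from *MxM*, and those of all genes were -0.0077 and -0.0091. *MxD* rose by 0.27 to 0.95 log2 units over *DxD* at the 10 genes and by 0.30 to 0.98 over *MxM* at the 9. Of these, 8 of the 10 and 8 of the 9 also differed between *DxD* and *MxM*, as did 31.9% of all genes. The comparisons share the *DxD* or the *MxM* males, which favours such an overlap. When arrays were centred on the meiotic genes instead, which moved the *MxD* minus *DxD* median of all 7000 genes to 0.11, *MxD* was lower than *DxD* at 60 genes (against 9.07% of all genes) and higher at 17. Blocking on the replicate number gave 16 higher than in *DxD* in place of 10, where the share of all genes rose from 15.9% to 23.5%. Leaving out *DxD* male 3 or *MxD* male 3 gave 6. The share of all genes higher was not taken for the 17 or the 6.

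Of the 38 genes lower than in *DxM*, 27 were also lower than in *DxD*, and 23 were also lower than in *MxM*. These comparisons share the *MxD* males and the spread of each gene, which favours such an overlap. The same overlap among all genes lower than in *DxM* is not given. Lower values than in all 3 fertile genotypes were found at 16 genes (5.97%, against 1.94% of all genes), and higher values than in all 3 at 0 (against 1.86%). These 16 comprised 2 genes on chromosome 1, 3 on chromosome 2, 4 on chromosome 3, 3 on chromosome 4 and 4 on chromosome 5. Their mean difference from the fertile genotypes ran from -0.27 to -0.81. The 3 *MxD* males were below all 9 fertile males at each of the 16. The calls rest on the same males, which favours this, and its share among all genes so called is not given. Over the whole group the 3 *MxD* males were below all 9 at 47 genes (17.5%, against 5.57% of all genes), and above all 9 at 0 (against 5.47%). Blocking on the replicate number raised the 16 genes lower than in all 3 fertile genotypes to 45 (against 4.81% of all genes). The 16 became 6 without *MxD* male 3, 7 without *DxM* male 1 or 3, and 9 without *DxM* male 2. They became 8 without *DxD* male 2, 10 without *DxD* male 3, and 28 without *MxM* male 1. The share of all genes was not taken in these fits.

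One gene of chromosome 3 had the largest shortfall from the fertile genotypes together. Its log2 values were 6.82, 6.74 and 6.61 in the sterile hybrid and 7.34, 7.13 and 7.25 in the fertile one. The *DxD* males had 7.90, 7.79 and 7.77, and the *MxM* males 7.47, 7.52 and 7.65. The genotypes did not overlap, with *MxD* the lowest, *DxM* next, then *MxM* and then *DxD*. At a second gene on chromosome 3 the fertile genotypes lay close together, with means of 8.71 (*DxM*), 8.70 (*DxD*) and 8.81 (*MxM*), and the *MxD* mean was 8.05. Its log2 difference between the hybrids was -0.66 ± 0.07 (SE), with an adjusted p of 0.000624 by limma with Benjamini-Hochberg adjustment.

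Over all 268 genes, 137 were lower in at least 1 of the 3 *MxD* comparisons and higher in none (51.1%, against 22.5% of all genes). Another 6 were higher and never lower (2.24%, against 20.1%), 12 were lower in 1 and higher in another (4.48%, against 3.86%), and 113 passed in none (42.2%, against 53.5%). Among the 137, 72 were lower in exactly 1 comparison (26.9%, against 15.2%) and 49 in exactly 2 (18.3%, against 5.34%). The *MxD* mean was the lowest of the 4 genotype means at 186 genes (69.4%, against 27.8% of all genes) and the highest at 8 (2.99%, against 27.2%). The *DxM* mean was the lowest at 13 genes (4.85%, against 12%) and the highest at 63 (23.5%, against 10%).

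The fall between the hybrids was seen on each chromosome. The median *MxD* minus *DxM* difference was -0.26 on chromosome 1, -0.22 on chromosome 2, -0.18 on chromosome 3, -0.19 on chromosome 4 and -0.19 on chromosome 5. Over the available genes of every type the medians were -0.0059, 0.0014, 0.0251, -0.0137 and 0.0121 in that order. The postmeiotic genes lower in *MxD* numbered 9 of 49 (18.4%), 11 of 66 (16.7%), 8 of 50 (16%), 6 of 64 (9.38%) and 4 of 39 (10.3%). The share over all genes was 3.5%, and it was not taken by chromosome. No test was made of a difference between chromosomes.

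Expression of the postmeiotic genes differed between the species about as often as that of other genes. By limma with Benjamini-Hochberg adjustment 81 of 268 differed between *DxD* and *MxM* (30.2%, against 31.9% of all genes). Of these, 47 were higher in *MxM* (17.5%, against 17.8%) and 34 higher in *DxD* (12.7%, against 14%), with a median difference of -0.02. The split moved with scaling, from 47 of 81 higher in *MxM* to 40 of 84 when arrays were centred on the genes with no cell type and to 62 of 88 when centred on the meiotic genes. The array was designed from a laboratory mouse genome of mainly *M. domesticus* origin, so a poorer match of *M. musculus* RNA to a probe and lower expression cannot be told apart in this comparison.

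Among genes higher in *MxM*, ENSMUSG00000049160 on chromosome 1 had the largest difference, with log2 values of 8.42, 7.06 and 8.01 in *DxD* and 9.29, 9.86 and 9.52 in *MxM*. It was 8.82, 9.34 and 9.41 in *DxM* and 8.47, 8.74 and 8.87 in *MxD*. The species did not overlap, and *DxD* male 2 was the lowest of the 12. The difference of *DxD* from *MxM* was -1.73 ± 0.30 (SE), with an adjusted p of 0.00103 by limma with Benjamini-Hochberg adjustment. ENSMUSG00000005628 on chromosome 3 was more even, at 7.05, 7.03 and 7.05 in *DxD* and 8.62, 8.54 and 8.46 in *MxM*. Its hybrids were between the species, with means of 7.87 ± 0.04 in *DxM* and 7.56 ± 0.17 in *MxD* (SD, n = 3). The species difference was -1.49, with an adjusted p of 3.68e-07 in the same limma fit with Benjamini-Hochberg adjustment.

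Among genes higher in *DxD*, ENSMUSG00000026773 on chromosome 2 had values of 7.46, 7.59 and 7.60 in *DxD* and 6.40, 6.42 and 6.03 in *MxM*. Both hybrids were close to *DxD*, at 7.22, 7.40 and 7.42 in *DxM* and 7.27, 7.24 and 7.25 in *MxD*. The species differed by 1.27 ± 0.10 (SE), with an adjusted p of 4.68e-06 by limma with Benjamini-Hochberg adjustment. ENSMUSG00000026113 on chromosome 1 was 7.92, 7.77 and 7.85 in *DxD* and 6.65, 6.85 and 6.67 in *MxM*. Its *DxM* males were at 7.47, 7.57 and 7.33, and its *MxD* males, at 7.13, 7.13 and 6.94, were lower than these without overlap. The species difference was 1.12 and the hybrid difference -0.39, with adjusted p of 4.24e-06 and 0.0256 by limma with Benjamini-Hochberg adjustment.

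**Figure D3:**
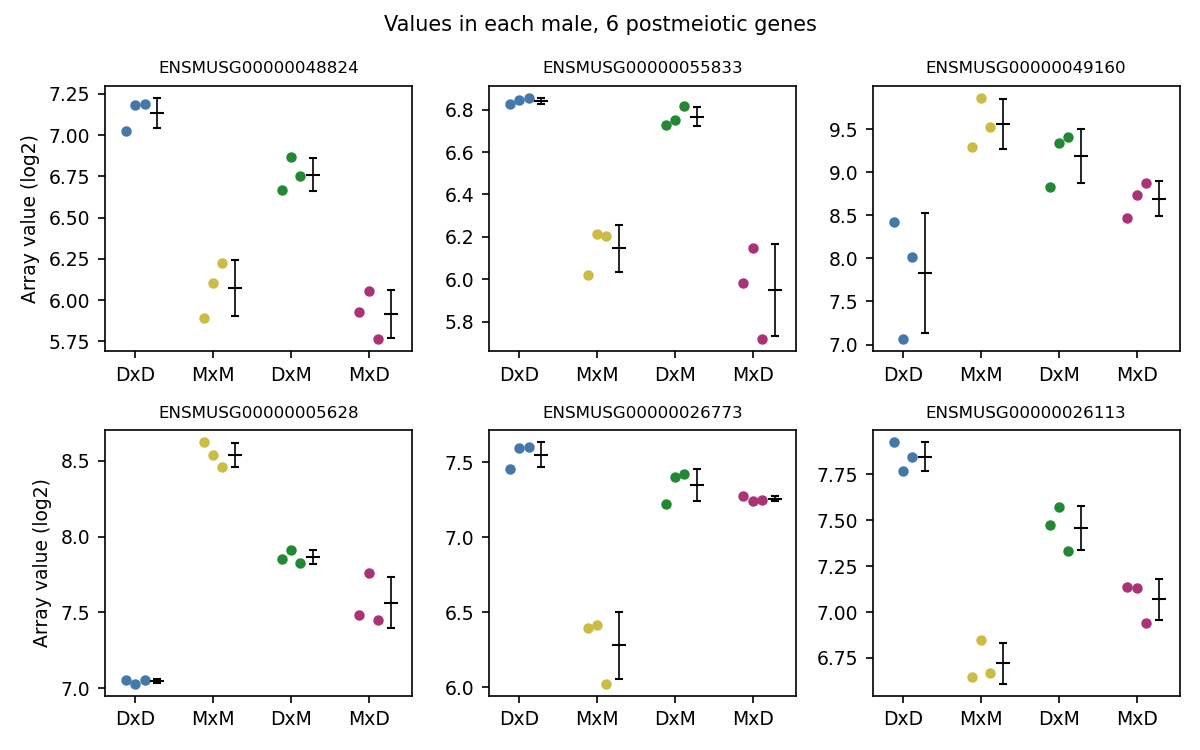
Log2 array values of 6 postmeiotic genes in each of the 12 males, with the mean and SD of the 3 males of a genotype in black beside them and a separate vertical scale in each panel. In the first 2 panels *DxM* lies toward *DxD* while *MxD* overlaps *MxM*, and in the other 4 panels *DxD* and *MxM* do not overlap.

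The fall between the hybrids was then set beside the species difference of each gene. Its median was -0.23 for the 34 genes higher in *DxD*, -0.18 for the 47 genes higher in *MxM* and -0.20 for the 187 genes without a species call. In these 3 classes 9 (26.5%), 7 (14.9%) and 22 (11.8%) were lower in *MxD* than in *DxM*, against 3.5% of all genes. That 3.5% was not split by species call. Both calls use the same spread of each gene, so genes of low spread are favoured in both. Across the 268 genes the *MxD* minus *DxM* and *DxD* minus *MxM* differences had a Pearson r of -0.135 and a Spearman rho of -0.0981, and over all 7000 genes these were -0.0879 and -0.1217. The 2 differences share no males, but all genes come from the same 12 arrays and are not independent. Both hybrids were then set against the middle of the species means. The median distance was -0.0043 in *DxM* and -0.22 in *MxD*. The *MxD* mean was below both species at 195 genes (72.8%, against 32.5% of all genes), and the *DxM* mean at 84 (31.3%, against 25.4%).

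**Figure D4:**
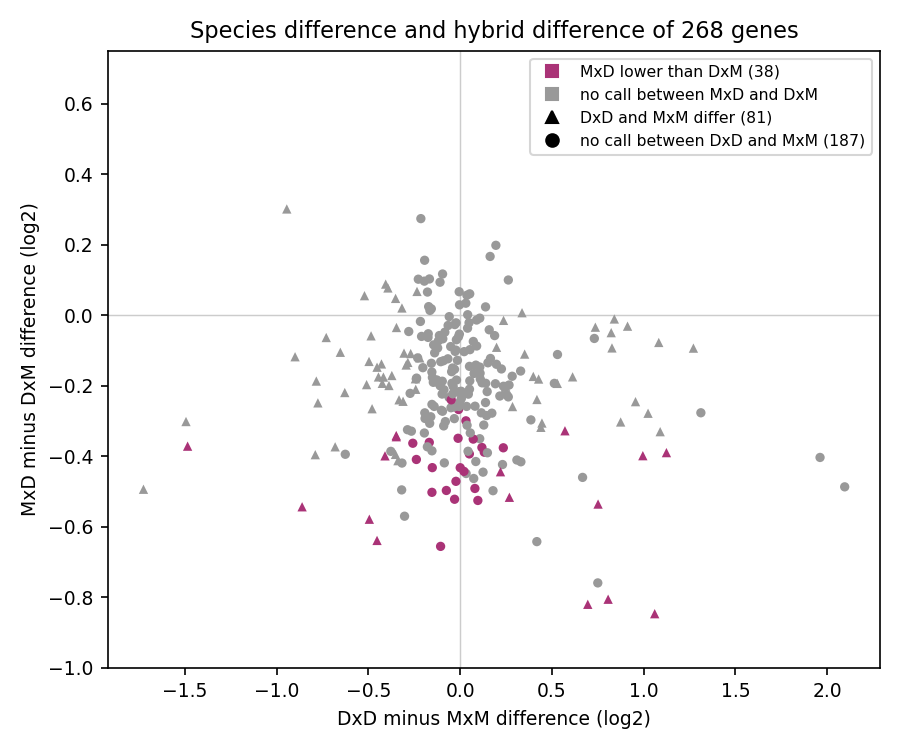
Each point is 1 of the 268 postmeiotic genes, with its *DxD* minus *MxM* difference on the horizontal axis and its *MxD* minus *DxM* difference on the vertical axis, both log2. Triangles are the 81 genes that differed between the species and purple symbols the 38 genes lower in *MxD* than in *DxM*. The cloud lies mostly below 0 on the vertical axis across the range of the horizontal one.

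The fertile hybrid was near the species for most of the group. By limma with Benjamini-Hochberg adjustment, *DxM* differed from *DxD* at 44 genes (16.4%, against 12.1% of all genes), being lower at 30 (against 6.21%) and higher at 14 (against 5.84%). It differed from *MxM* at 61 (22.8%, against 16.9%), being lower at 40 (against 10.4%) and higher at 21 (against 6.51%). The medians were 0.0009 and -0.04. Blocking on the replicate number, *DxM* differed from *DxD* at 69 genes (against 22.6% of all genes), of which 25 were higher (against 10.9%). The 44 became 26 without *DxD* male 2 (against 6.4% of all genes) or *DxD* male 3 (against 7.01%). They became 28 without *DxM* male 1 (against 7.7%). The 61 became 39 without *DxM* male 1 (against 10.3%). Centring the arrays on the meiotic genes left 21 of 45 lower than in *DxD*, in place of 30 of 44. *DxM* was lower than both species at 8 genes (2.99%, against 1.26%) and higher than both at 1 (0.373%, against 0.314%).

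The 8 genes low in the fertile hybrid lay on chromosomes 1, 2, 3 and 5. The widest gap was at a gene of chromosome 2, with log2 values of 5.70, 5.94 and 5.64 in *DxM* and 5.88, 5.97 and 6.25 in *MxD*. The *DxD* males had 6.44, 6.58 and 6.69, and the *MxM* males 6.53, 6.79 and 7.04. Both hybrids were below every male of both species and overlapped each other. The *DxM* mean was lower than *DxD* by 1.76-fold and lower than *MxM* by 2.04-fold, with adjusted p of 0.00332 and 0.00069 by limma with Benjamini-Hochberg adjustment. The single gene high in *DxM*, on chromosome 1, was also high in *MxD*, with means of 8.61 in both hybrids, 8.20 in *DxD* and 8.26 in *MxM*.

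Differences from the species were larger among genes of low array signal. The 268 genes were divided by their mean over all 12 males into a dim class of 90, a middle class of 89 and a bright class of 89. Array signal is a property of probes as well as of RNA, and the classes do not rank genes by RNA amount. The median *MxD* minus *DxD* difference was -0.41 in the dim, -0.23 in the middle and -0.12 in the bright class, and the median *MxD* minus *MxM* difference was -0.36, -0.23 and -0.15. Between the hybrids the classes were closer together, with medians of -0.22, -0.23 and -0.15. With arrays centred on the meiotic genes the *MxD* minus *DxD* medians were -0.29, -0.11 and -0.0038, with 47 of the 89 bright genes below 0, and the medians of all genes in the same ranges were 0.123, 0.0999 and 0.0944.

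In the dim class the fertile hybrid was also low. Its median difference was -0.14 from *DxD* and -0.16 from *MxM*, where the 4568 genes of all kinds in this signal range had 0.0012 and -0.0337. In the bright class those medians were 0.0304 and -0.0035. By limma with Benjamini-Hochberg adjustment *DxM* was lower than *DxD* at 20 of the 90 dim genes (22.2%, against 7.46% of all genes in the range) and lower than *MxM* at 26 (28.9%, against 12.1%). The median deviations of the *DxM* males in the dim class were -0.0062, -0.0237 and 0.0268, below all 3 *DxD* males, at 0.122, 0.0624 and 0.0566, and all 3 *MxM* males, at 0.0757, 0.119 and 0.214. The *MxD* males were lower still, at -0.17, -0.23 and -0.29. With arrays centred on the meiotic genes the dim *DxM* median was -0.06 from *DxD* and -0.13 from *MxM*, and with arrays centred on the genes with no cell type it was -0.16 and -0.12.

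**Figure D5:**
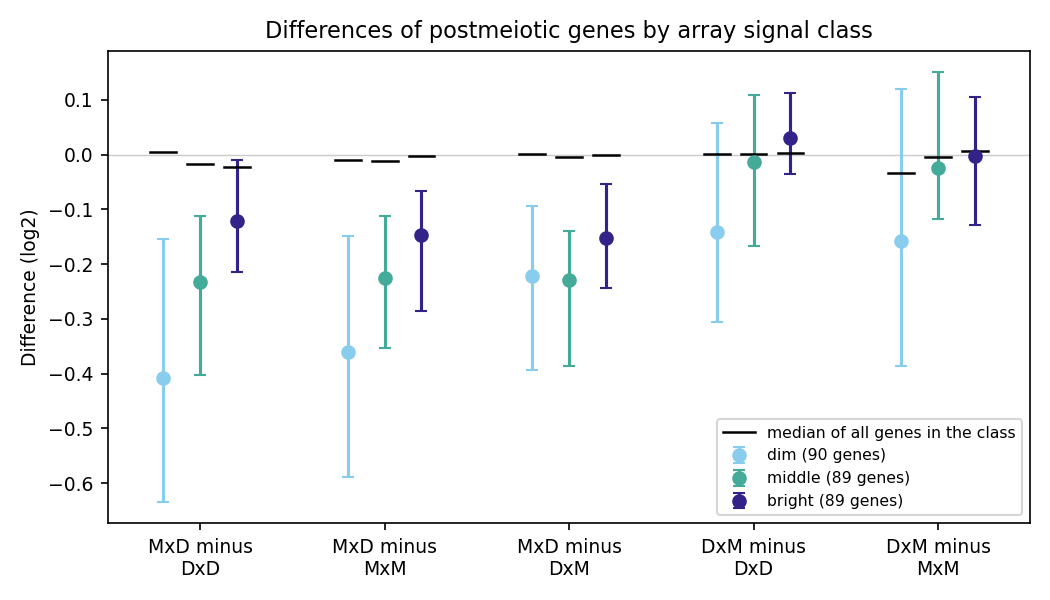
Points give the median log2 difference and bars its quartiles over postmeiotic genes of dim, middle and bright mean array signal, for 5 pairs of genotypes, and short black lines give the median of all genes in the same signal range. The dim class is lowest in both *MxD* comparisons with a species, at -0.41 and -0.36, and its *DxM* medians are -0.14 and -0.16.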

How the data were processed

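The authors deposited log2 expression values per gene, made from Affymetrix mouse genome expression arrays with PLIER and a custom chip description file (version 11), which joins probes into Ensembl genes. Genes detected in all 12 males were kept and arrays were quantile normalized, so the sorted values of all arrays were identical. The PLIER version is not given in the sources used here. Arrays carry no read depth, and precision is limited by their number. Each deposited column was tied to a male by its title, and no column of individual males was left unused.

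Genotypes were compared by limma 3.58.1 (R 4.3.3) on all 7000 genes, fitting 4 genotype means to 12 males with 1 shared spread per gene, and p-values were adjusted over all genes by Benjamini-Hochberg at 5%. Code was first tested on simulated data. Summaries used Python 3.11.15, and figures matplotlib 3.10.9. Members, lists and tests were chosen with earlier results of these data known. Genes named were the largest changes past 5% without overlap between males, at most 2 identifiers in each direction of a comparison because no table pairs identifiers with names. Others are given without an identifier, and the 2 hybrid increases were named as the largest without overlap. Functional and marker lists drawn up by gene symbol could not be matched and gave no result.

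Whether males of 1 replicate number pair was checked by correlating their deviations from genotype means over all genes. The correlations were 0.411 to 0.756 between *DxM* and *MxD*, and above 0.1 for every number between *MxD* and each species and between *DxD* and *DxM*. They fell to 0.0744 between *DxD* and *MxM* and to -0.0511 between *MxM* and *DxM*, so pairing by number was not shown for these genotypes. The replicate block was nevertheless applied to every comparison, these included. Alternatives were the methods' t-test, other thresholds, fits of the 2 genotypes compared only, the replicate block, array weights, 2 other centrings, a filter on dim genes and leaving out each male. Removing all replicate 1 males was added after seeing the data.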

Additional observations from a re-analysis of the deposited data

How the results depend on the processing

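Under the alternatives run, none of the 8 genes given by identifier changed direction and the median *MxD* minus *DxM* difference kept its sign. The majority direction of a split did turn. For *DxD* and *MxM* it turned with centring on the genes with no cell type (40 of 84 higher in *MxM*), and for *DxM* and *DxD* with centring on the meiotic genes (21 of 45 lower in *DxM*) and under the methods' t-test, unequal variances, after Benjamini-Hochberg adjustment (1 of 6 lower in *DxM*). In what follows, counts of postmeiotic genes are given in the order *MxD* lower than *DxM*, *MxD* lower than all 3 fertile genotypes, and then the comparison named. Percentages in brackets are the shares of all genes, which for all 3 were taken only in the main fit and the replicate block. Leaving out each male in turn gave 13 to 56 genes lower in *MxD* than in *DxM* (1.1% to 4.89%) and 6 to 28 lower than in all 3. It gave 66 to 107 lower than in *DxD* (10.9% to 18.3%) and 76 to 113 lower than in *MxM* (12.6% to 17.8%). Between *DxD* and *MxM* 58 to 93 differed (23.8% to 36.5%), between *DxM* and *DxD* 26 to 52 (6.4% to 15.9%), and between *DxM* and *MxM* 39 to 64 (10.3% to 20%). The median difference ran from -0.23 to -0.18. With the replicate block the counts were 93 (8.83%) and 45 (4.81%), with 69 genes different between *DxM* and *DxD* (22.6%). The block also moved genes higher in *MxD* than in *DxD* from 10 (15.9%) to 16 (23.5%). Genes higher in *DxM* than in *DxD* moved from 14 (5.84%) to 25 (10.9%). After Benjamini-Hochberg adjustment, the methods' t-test (unequal variances) called 0 (0%) and 0, with 29 genes lower than in *DxD* (4.29%) and 0 lower than in *MxM* (0.0286%). It called 25 different between *DxD* and *MxM* (6.69%), 6 between *DxM* and *DxD* (2.43%) and 0 between *DxM* and *MxM* (0.0571%). With equal variances it called 1 (0.0714%) and 1, with 28 lower than in *MxM* (3.83%) and 9 different between *DxM* and *MxM* (2.56%). At an unadjusted p under 0.05, the t-test with unequal variances placed 74 lower in *MxD* than in *DxM* (7.33%) and 76 different between *DxM* and *DxD* (24.8%). There limma placed 111 (11%), 50 and 78 (25.5%). With limma at 1% the counts were 13 (1%) and 6, with 66 lower than in *MxM* (10.2%). At 1%, 51 differed between *DxD* and *MxM* (20.1%), 22 between *DxM* and *DxD* (5.76%) and 30 between *DxM* and *MxM* (7.9%). Fits of the 2 genotypes compared only gave 9 lower than in all 3, 61 lower than in *MxM* (9.03%) and 31 different between *DxM* and *MxM* (7.61%). Array weights, whose fit stopped before convergence, gave 65 lower in *MxD* than in *DxM* (5.54%) and 90 different between *DxM* and *DxD* (32.4%). Centring on the meiotic genes gave 25 (2.66%) and 10. Removing all replicate 1 males, chosen after seeing the data, left 23 different between *DxM* and *DxD* (7.43%). Except for the counts that follow from fewer males or a stricter threshold, the cause of these shifts was not tested. The other 157 values of these results moved by less than 1.5 times. Of the values of these 8 genes under alternatives, 187 stayed on their side of the threshold. Another 7 no longer passed, all under the t-test with Benjamini-Hochberg adjustment. The largest hybrid increase, ENSMUSG00000042501, passed in 3, at an unadjusted p under 0.05 by limma and by the t-test, and without *MxM* male 3.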
